A study of Homo sapiens with 18 samples.

Results

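The 6 neuronal genes BRINP1, BRINP2, BRINP3, RGS7, RGS6 and SOGA3 were examined among 19719 protein-coding genes with a known strand, in the chromatin of a prostate cancer cell line. They were chosen by name with earlier results of these data known, and 5 of the 6 have a site in the authors' tables of differential sites. The difference between the groups at those sites is therefore given as a description, with no test. For each gene, every H3K4me3 and H3K27me3 peak from 3 kb upstream of the gene start to the gene end was collected from the 12 peak lists. V16D is a castration-resistant prostate cancer line derived from LNCaP, an androgen-sensitive line. All groups were V16D cells grown in RPMI1640 with 10% fetal bovine serum. Cells with a control lentivector (V16D/CTL) were set against cells with a lentivector that overexpresses H19, a long non-coding RNA without a protein product (V16D/H19), with 3 biological replicates per group and mark, each with its own input. Chromatin was the only readout here, no transcript level was measured in these libraries, and the H19 made from the vector cannot be checked from peaks at the gene of origin.

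Trimethylation of lysine 4 on histone H3 (H3K4me3) marks the starts of genes that are active or poised, and trimethylation of lysine 27 (H3K27me3), laid down by Polycomb repressive complex 2, covers genes kept silent. Developmental and neuronal genes often carry both marks at the start in cells that do not use them, stem cells above all, a state called bivalent. The BRINP genes encode proteins of the nervous system that are induced by bone morphogenetic protein and retinoic acid signals. RGS7 and RGS6 belong to the R7 family of regulators of G protein signalling, which work with the G protein subunit GNB5 to shorten signals from receptors in neurons. SOGA3, named MTCL3 in RefSeq, is related to the microtubule crosslinking factors MTCL1 and MTCL2.

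The start sequences of these genes differed in their content of CpG dinucleotides, and they are shown because the peaks described afterwards lie on or beside them. Each line is a RefSeq promoter window of 300 bases (250 before and 50 after an annotated start, GRCh38.p14), read 5′ to 3′ along the gene, with every CpG in capitals.
BRINP1, chr9:119369386-119369685, minus strand: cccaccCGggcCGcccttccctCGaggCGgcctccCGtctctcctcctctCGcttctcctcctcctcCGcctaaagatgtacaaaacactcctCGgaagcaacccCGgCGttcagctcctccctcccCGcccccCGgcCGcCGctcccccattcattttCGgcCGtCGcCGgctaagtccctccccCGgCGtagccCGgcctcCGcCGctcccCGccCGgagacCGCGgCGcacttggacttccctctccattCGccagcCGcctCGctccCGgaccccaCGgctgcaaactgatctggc
RGS7, chr1:241357181-241357480, minus strand: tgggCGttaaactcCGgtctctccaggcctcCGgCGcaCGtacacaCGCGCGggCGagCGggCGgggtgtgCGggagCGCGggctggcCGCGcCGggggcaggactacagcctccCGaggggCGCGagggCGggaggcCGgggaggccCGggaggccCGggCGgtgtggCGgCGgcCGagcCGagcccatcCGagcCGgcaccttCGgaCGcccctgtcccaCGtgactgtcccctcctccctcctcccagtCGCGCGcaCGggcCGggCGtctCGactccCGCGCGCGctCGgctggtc
SOGA3, chr6:127519286-127519585, minus strand: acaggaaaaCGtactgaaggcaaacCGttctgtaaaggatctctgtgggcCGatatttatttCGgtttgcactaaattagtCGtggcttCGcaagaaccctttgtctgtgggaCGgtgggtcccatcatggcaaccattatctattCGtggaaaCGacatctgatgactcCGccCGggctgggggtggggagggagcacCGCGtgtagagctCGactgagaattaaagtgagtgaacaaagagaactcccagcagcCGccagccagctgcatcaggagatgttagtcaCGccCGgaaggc
RGS6, chr14:71931921-71932220, plus strand: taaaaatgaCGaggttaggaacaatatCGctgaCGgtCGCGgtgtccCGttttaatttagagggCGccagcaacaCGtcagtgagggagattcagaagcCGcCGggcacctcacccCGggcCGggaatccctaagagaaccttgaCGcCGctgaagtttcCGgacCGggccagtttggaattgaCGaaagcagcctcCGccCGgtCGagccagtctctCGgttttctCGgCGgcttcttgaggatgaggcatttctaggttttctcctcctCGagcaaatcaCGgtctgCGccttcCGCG
BRINP3, chr1:190477815-190478114, minus strand: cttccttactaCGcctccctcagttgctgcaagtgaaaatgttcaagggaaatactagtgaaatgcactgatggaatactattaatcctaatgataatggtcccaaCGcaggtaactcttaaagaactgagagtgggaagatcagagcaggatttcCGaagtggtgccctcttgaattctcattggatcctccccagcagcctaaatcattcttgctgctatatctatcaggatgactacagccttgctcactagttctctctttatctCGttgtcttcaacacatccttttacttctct
BRINP3-DT, chr1:190478301-190478600, plus strand: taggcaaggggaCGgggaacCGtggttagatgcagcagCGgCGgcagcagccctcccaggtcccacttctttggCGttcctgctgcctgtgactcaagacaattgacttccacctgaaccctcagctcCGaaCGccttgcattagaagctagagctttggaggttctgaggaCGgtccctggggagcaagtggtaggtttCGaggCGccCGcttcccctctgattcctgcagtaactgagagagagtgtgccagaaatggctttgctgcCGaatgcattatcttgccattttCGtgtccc
The RGS7 window held 46 CpG and the BRINP1 window 33, against a median of 21 over 22078 promoter windows of protein-coding genes. The windows of RGS6, SOGA3 and BRINP3 held 28, 17 and 4 CpG. Windows at further RefSeq starts, not printed, held 46, 41 and 2 CpG at RGS7, 10 and 14 at RGS6 and 15 at BRINP3. The counts of these 3 genes thus depend on the start chosen. BRINP3-DT, a long non-coding RNA gene that runs head to head with BRINP3, is shown because H3K4me3 peaks near BRINP3 reached into this window of 13 CpG. None lay over the BRINP3 window. In replicate 3 of both groups the strong peak began past the end of the BRINP3-DT window, and a smaller peak lay over it. The GC box GGGCGG, searched on both strands, was found 3 times in the windows of BRINP1 and RGS7, once in those of SOGA3 and RGS6, and in 56.3% of all windows. The motif TTCAGCACC, a part of the REST element, and the POU octamer ATGCAAAT were found in none of the 6 windows shown, and in 0.353% and 1.66% of all windows. BRINP2 had no RefSeq promoter window, so its start was neither printed nor searched.

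The H3K4me3 lists held 20048 to 21934 peaks per library and the H3K27me3 lists 55060 to 72289. Peaks were called in each library against its own input. The lists carry no read counts, and the depths that the study tabulates for its libraries were not used here. Of the H3K4me3 peaks, 88.3% to 91.6% per library reached a −log10 q of 5. Of the H3K27me3 peaks, 0.912% to 0.967% did in the control libraries (510 to 699 peaks) and 0.252% to 0.301% in the H19 libraries (142 to 189 peaks). Single H3K27me3 peaks were thus weak calls in both groups, and strong ones were fewer in every H19 library over the whole genome, which bears on each H3K27me3 enrichment given for single genes; its part in them was not tested. All 5 luminal prostate genes checked (KLK2, KLK3, TMPRSS2, KRT8 and KRT18) had an H3K4me3 promoter peak in all 6 libraries and none had an H3K27me3 promoter peak. Over all 19719 genes, 60.8% had an H3K4me3 promoter peak in all 6 libraries, and 15.3% an H3K27me3 one in at least 1.

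The authors' tables listed 5 H3K4me3 sites for these genes, 4 of them higher and 1 lower in V16D/H19, and 1 H3K27me3 site, which was lower. Among all 1857 H3K4me3 sites listed, 24.0% were higher in V16D/H19, and among all 1140 H3K27me3 sites 8.51%. The 4 genes with a higher H3K4me3 site were RGS7, SOGA3, BRINP1 and BRINP2, where 2.41% of 14271 genes with an H3K4me3 peak had one, and BRINP3 had the lower site, as did 7.59%. RGS7 had the lower H3K27me3 site, as did 10.4% of 5528 genes with an H3K27me3 peak. RGS6 had none. The tables give each group's mean normalised read count on a log2 scale, with no spread. The largest was at the RGS7 promoter (chr1:241356301-241357798, hg38), with authors' means of 7.07 in control cells and 7.73 in V16D/H19. The promoter sites of BRINP1 (chr9:119368729-119369859) and BRINP2 (chr1:177170634-177171703) were weaker, with authors' means of 3.57 and 5.16 for BRINP1 and of 2.55 and 4.54 for BRINP2. The SOGA3 site (chr6:127515347-127516897) had authors' means of 4.30 and 5.60 and lay 2.44 to 3.99 kb downstream of the start. An intron of BRINP3 held the lower H3K4me3 site (chr1:190380928-190381466), with authors' means of 4.08 in control cells and 1.21 in V16D/H19. The spread between libraries behind these means is not in the tables, so the peaks of each library are given gene by gene.

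**Figure D1:**
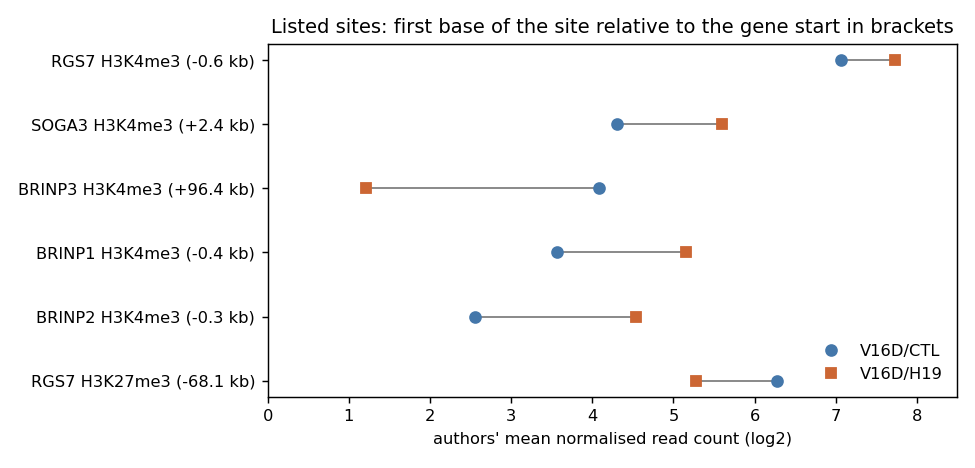
Each row is 1 site that the authors' differential tables list for these genes. The circle is the V16D/CTL mean and the square the V16D/H19 mean (log2 normalised read count, the authors' means), and the brackets give the distance of the first base from the gene start. The 4 sites at or near a start lie to the right in V16D/H19, while the BRINP3 intron site and the H3K27me3 site upstream of RGS7 lie to the left.

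At BRINP1, a small H3K4me3 peak over the start in control cells was wider and stronger in H19 cells. The peak spanned 322 bases in V16D/CTL replicate 1 and 338 bases in replicate 2, and no peak was called in replicate 3. In V16D/H19 it spanned 889, 850 and 726 bases. The 3 libraries with H19 thus lay above all 3 control libraries, with a mean of 822 ± 85.1 bases (SD, n = 3) against 220 ± 191. The enrichment over input was 4.96-fold and 5.60-fold in the control libraries with a peak and 9.30-fold, 10.8-fold and 7.25-fold in the H19 libraries. The wider peaks extended to both sides of the start: those of V16D/H19 began 229 to 307 bases upstream of it, whereas both control peaks began downstream of it. A second H3K4me3 peak of 213 to 344 bases stood about 200 kb downstream, near the end of the gene, in V16D/CTL replicate 3 and in all 3 V16D/H19 libraries.

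BRINP2 showed the same order at a lower level. An H3K4me3 peak of 205 bases was called at its start in V16D/CTL replicate 1 (4.96-fold over input) and none in replicates 2 and 3. The V16D/H19 peaks spanned 431, 551 and 401 bases, with 8.19-fold, 10.9-fold and 3.65-fold enrichment. Every H19 library was above every control library in length, but the fold of V16D/H19 replicate 3 lay below that of the 1 control peak, so the groups overlapped in enrichment. No other H3K4me3 peak was found in the 114 kb of BRINP2, and the mean length was 461 ± 79.4 bases in V16D/H19 against 68.3 ± 118 in V16D/CTL (SD, n = 3).

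RGS7 had a strong H3K4me3 promoter peak in every library. It spanned 925, 1181 and 1162 bases in control cells and 1497, 1366 and 1103 bases in V16D/H19. The third H19 library fell inside the control range, so the promoter lengths of the groups overlapped (1089 ± 143 against 1322 ± 201 bases, SD, n = 3). The enrichment was 24.8-fold, 28.8-fold and 18.8-fold in control cells and 40.8-fold, 17.6-fold and 14.1-fold in V16D/H19. The mean enrichment was 24.1 ± 5.01 and 24.2 ± 14.5, and the spread of the H19 libraries was set by replicate 1. Inside the gene, 148 to 149 kb from the start, V16D/H19 replicates 1 and 3 each had a small peak (292 and 210 bases), and these 2 peaks shared no base, so neither was called in a second library. With them the length over the whole gene no longer overlapped (925, 1181 and 1162 bases against 1789, 1366 and 1313), and that separation therefore rests on calls seen in single libraries. LOC124904601, a non-coding gene on the other strand, starts 22 bases upstream of RGS7, so the promoter peak cannot be assigned to RGS7 alone.

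At SOGA3 the H3K4me3 peak did not lie on the annotated start but 2.6 to 3.5 kb downstream of it, inside the gene. Its width was 307, 424 and 358 bases in control cells and 582, 941 and 718 bases in V16D/H19. The groups did not overlap, and the means were 363 ± 58.7 and 747 ± 181 bases (SD, n = 3). The enrichment was 6.53-fold, 4.96-fold and 6.80-fold in control cells and 12.04-fold, 9.67-fold and 7.34-fold in V16D/H19, again without overlap. The RefSeq readthrough gene SOGA3-KIAA0408 shares the start of SOGA3, so the values at the start and downstream of it belong to both. The authors annotate the listed SOGA3 site as a promoter, 1994 bases from the start of its nearest transcript. Promoter and gene body are counted here from the RefSeq start.

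**Figure D2:**
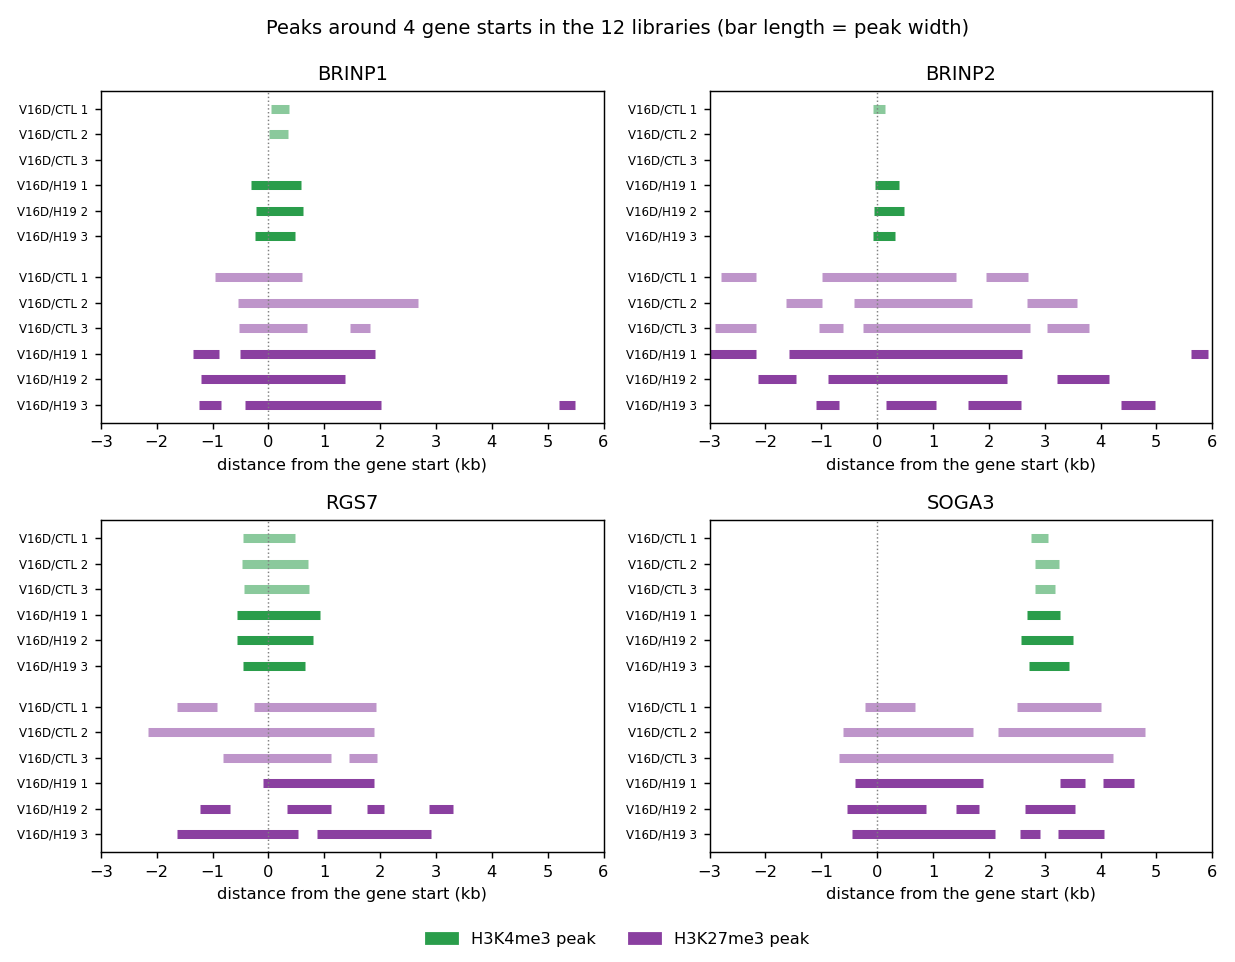
Bars are the peaks called in each library (rows) from 3 kb upstream to 6 kb downstream of the gene start (horizontal axis, kb), green for H3K4me3 and purple for H3K27me3, paler in V16D/CTL. The H3K4me3 bars of BRINP1, BRINP2 and SOGA3 are longer in V16D/H19, and H3K27me3 bars lie over or beside them in both groups.

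BRINP3 showed the reverse order in the gene body. A peak of 405, 381 and 345 bases stood 96.4 to 96.9 kb from the start in the 3 V16D/CTL libraries (8.02-fold, 4.35-fold and 3.39-fold over input), and no peak was called there in any of the 3 V16D/H19 libraries. Of 20708 H3K4me3 sites called in 2 or more libraries, 85 (0.410%) were called in every control and no H19 library. The 6 genes held 8 of the 20708 sites, and the BRINP3 intron site was the 1 with this pattern. The peaks near the BRINP3 start lay 0.463 to 1.90 kb upstream of it, over a start of BRINP3-DT. In replicate 3 of both groups they were called as 2 peaks, and only the weaker covered that start. Their largest enrichment was 26.4-fold, 27.2-fold and 24.5-fold in control cells and 28.6-fold, 29.7-fold and 9.93-fold in V16D/H19. Only V16D/H19 replicate 3 stood apart, and the bases within 1 kb of the start were 426 ± 97.5 and 390 ± 42.0 (SD, n = 3). Over the whole gene the H3K4me3 length was 1615 ± 196 bases in control cells and 1207 ± 115 in V16D/H19, with every H19 library below every control library.

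RGS6, the relative of RGS7, had no H3K4me3 peak within 1 kb of its gene start in any library and no listed site of either mark. Its one H3K4me3 site common to all 6 libraries lay 517 kb into the gene, where it spanned 427, 493 and 530 bases in control cells and 432, 300 and 216 bases in V16D/H19. These widths overlapped between the groups. V16D/CTL replicate 1 had a further peak of 217 bases, 64.6 to 64.9 kb from the start. That peak covers the RGS6 start whose window is printed, since the 3 starts in the RefSeq promoter table lie 64.8 to 66.2 kb downstream of the gene start in the RefSeq gene table. With it the summed H3K4me3 length was 556 ± 78.7 bases in control cells and 316 ± 109 in V16D/H19 (SD, n = 3), and every H19 library lay below every control library.

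**Figure D3:**
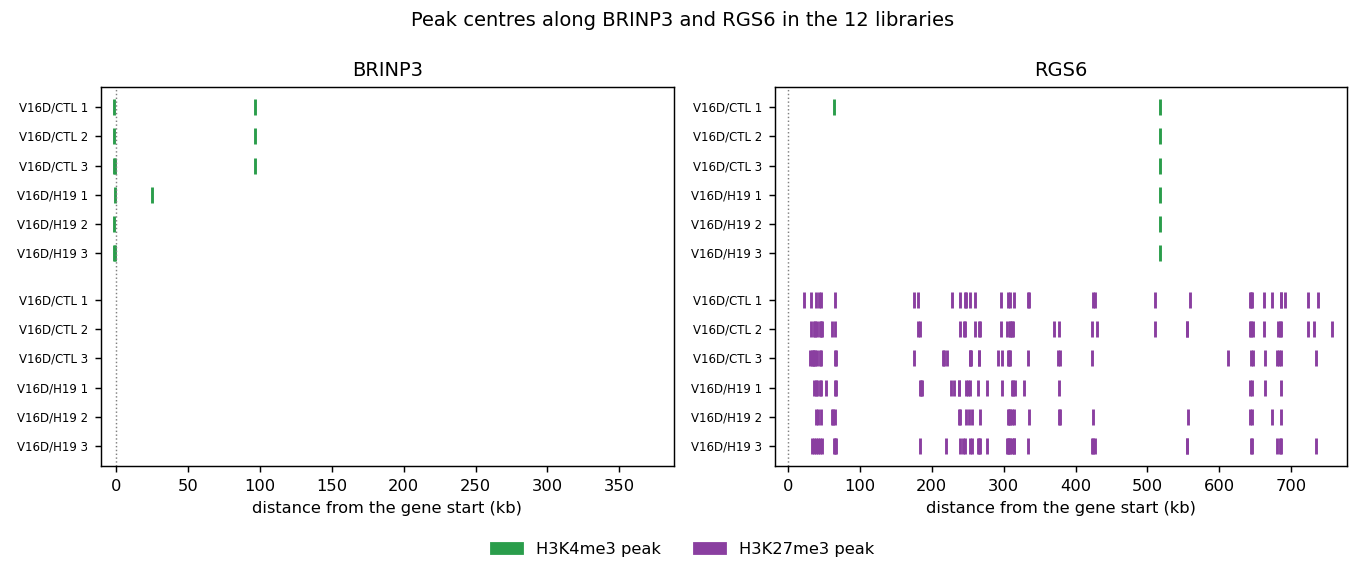
Each tick is the centre of 1 peak along BRINP3 (left) and RGS6 (right), by library (rows) and distance from the gene start (kb), green for H3K4me3 and purple for H3K27me3. The BRINP3 panel has no H3K27me3 tick in any library and its H3K4me3 tick near 97 kb appears in the 3 V16D/CTL rows alone, whereas RGS6 has 26 to 40 H3K27me3 peaks per library.

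Counted together, 4 of the 6 genes had more H3K4me3 length over the gene in every V16D/H19 library than in any V16D/CTL library (BRINP1, BRINP2, RGS7 and SOGA3) and 2 had less (BRINP3 and RGS6). Among 14271 protein-coding genes with an H3K4me3 peak the same separation was seen upward in 8.32% and downward in 5.87%. At the promoter, 2 of the 4 genes with a peak were separated upward (BRINP1 and BRINP2), against 5.90% of 12652 genes. In the largest enrichment over input, BRINP1 and SOGA3 were separated upward, against 7.43% of genes. With peaks of a −log10 q of at least 5 only, 3 genes were separated upward over the gene (BRINP1, RGS7 and SOGA3) and 0 downward. These counts use the contrast that the genes were chosen by, so nothing is read from their distance to the background. Summed over the 6 genes, H3K4me3 covered 4.24, 3.94 and 3.76 kb in control cells and 5.67, 5.54 and 4.80 kb in V16D/H19. All H19 sums were above all control sums, with means of 3.98 ± 0.245 and 5.34 ± 0.471 kb (SD, n = 3). The mean enrichment of the peaks overlapped between the groups, at 11.1 ± 1.10-fold and 10.8 ± 3.57-fold. Single control libraries had 10.8-fold, 12.4-fold and 10.2-fold, against 12.9-fold, 12.8-fold and 6.65-fold for the H19 libraries. Replicates 1 and 2 with H19 thus lay above every control library, and replicate 3 lay below every one. At each of the 6 genes, the largest H3K4me3 enrichment was also lower in replicate 3 than in the other H19 libraries. The cause was not tested. The number of genes with an H3K4me3 promoter peak was 4, 3 and 2 in the control libraries and 4 in each H19 library. Of the 19719 genes, 60.8% had one in all 6 libraries and 64.2% in at least 1. Whether more cells carried the mark or each cell carried more of it cannot be told apart in these bulk samples.

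**Figure D4:**
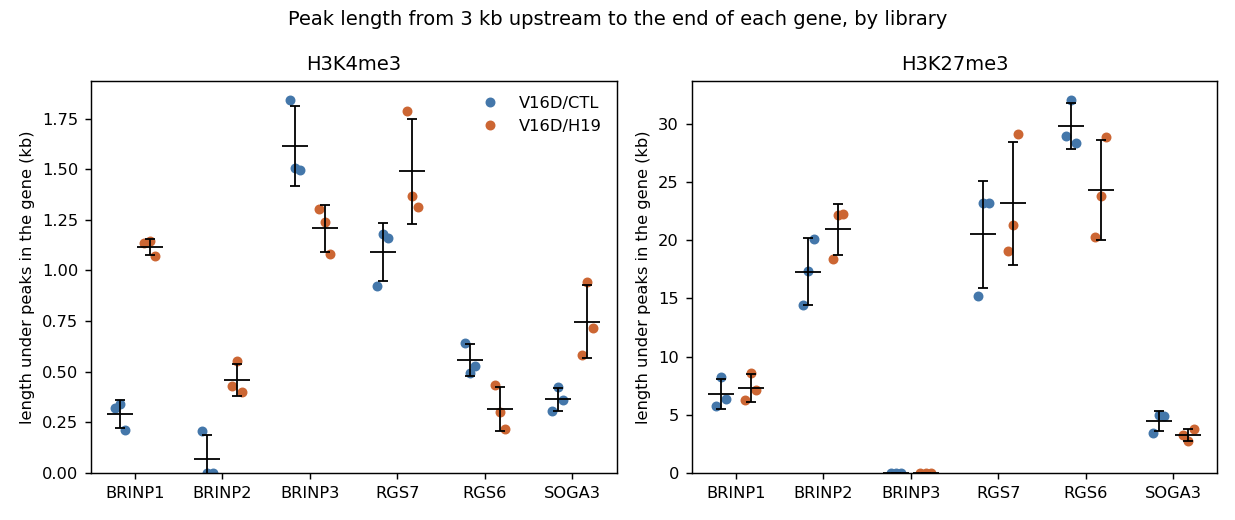
Points are single libraries, black bars the mean and SD (n = 3) of the length under peaks (kb) from 3 kb upstream of each gene to its end, for H3K4me3 (left) and H3K27me3 (right, on a longer scale). In H3K4me3 the groups do not overlap at any of the 6 genes, up in BRINP1, BRINP2, RGS7 and SOGA3 and down in BRINP3 and RGS6; in H3K27me3 they overlap at all 5 genes with peaks.

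H3K27me3 covered 5 of the 6 genes in all 6 libraries, and its length over the whole gene with 3 kb upstream did not separate the groups at any of them. Summed over the genes it covered 67.8, 85.8 and 82.9 kb in control cells and 67.3, 78.5 and 91.1 kb in V16D/H19. The means were 78.8 ± 9.70 and 79.0 ± 11.9 kb (SD, n = 3), and the difference of 0.126 kb was far smaller than the spread. Of 5528 protein-coding genes with an H3K27me3 peak, 15.8% were separated downward in H19 cells and 2.42% upward. Beyond 1 kb downstream of the start, in the gene body, SOGA3 was separated: H3K27me3 covered 2538, 3341 and 3220 bases in the control libraries against 1899, 1304 and 2301 in the H19 libraries (3033 ± 433 and 1835 ± 502, SD, n = 3). It was the 1 gene of 5 with that order, which 14.9% of 4784 genes had. When length was multiplied by the enrichment, SOGA3 and RGS6 were separated downward over the whole gene, as were 19.4% of genes.

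The genes differed from each other in H3K27me3 far more than the groups did. BRINP2 was the most densely covered, over 16.7% of its length in the mean of 6 libraries (12.6% to 19.4%). This was more than in 95.9% of the 19719 genes, of which 72.0% had no coverage. SOGA3 came next with 7.79%, its range over libraries above those of the genes that follow. RGS7 was covered over 3.73%, RGS6 over 3.53% and BRINP1 over 3.42%. These 3 did not differ beyond their spread. BRINP3, a gene of 380 kb, had no H3K27me3 peak in any of the 6 libraries. Of 784 protein-coding genes with a locus of at least 300 kb, 151 (19.3%) also had none, and the median coverage of those 784 was 0.615%.

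In the 5 covered genes, 104 H3K27me3 sites were called in 2 or more libraries, 18 of them in all 6. One such site lay over the start of each of BRINP1, BRINP2, RGS7 and SOGA3. Of the 19719 genes, 6.43% had an H3K27me3 promoter peak in all 6 libraries. In RGS6 a site held by all 6 libraries lay 63.0 to 68.0 kb from the gene start, over the 3 starts of the promoter table. One site, 258 to 260 kb into RGS7, had a peak in all control libraries and in no H19 library, as did 1.97% of 58789 H3K27me3 sites. None showed the reverse.

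Within 1 kb of the start, the H3K27me3 length overlapped between the groups at BRINP2 (1678 ± 282 bases in V16D/CTL against 1678 ± 460 in V16D/H19), RGS7 (1719 ± 338 against 1244 ± 362) and SOGA3 (1406 ± 433 against 1418 ± 32.5). BRINP1 was the exception, with 1440 ± 191 against 1731 ± 236 bases and every H19 library above every control library. This upward separation was seen in 1.13% of 3021 genes with an H3K27me3 promoter peak, and the downward one in 12.7%. It was lost under 4 of the 5 other settings tried, among them lists of equal length and a promoter of 3 kb to each side. The largest H3K27me3 enrichment over the gene was separated downward at BRINP2 alone (5.15 ± 0.259-fold against 4.44 ± 0.250-fold), as in 11.3% of genes. Within 1 kb of the BRINP1 start the largest enrichment went the other way from the length (4.20 ± 0.202-fold in V16D/CTL against 3.89 ± 0.0874-fold in V16D/H19). Every H19 library was below every control library. Length times enrichment per kb overlapped there and was separated downward at the RGS7 start (3553 ± 1025 against 2254 ± 306). The shares of all genes with these orders were not counted, so neither is read as particular to BRINP1 or RGS7.

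Both marks lay on the same bases at the starts of BRINP1, BRINP2 and RGS7, and at the SOGA3 peak downstream of its start in 5 of the 6 libraries. At BRINP1 the H3K4me3 peak was wholly inside an H3K27me3 peak of the same replicate number in all 5 libraries that had one, so that 322 and 338 bases in control cells and 889, 850 and 726 bases in V16D/H19 carried both. At BRINP2 it was wholly inside in V16D/CTL replicate 1 and in V16D/H19 replicates 1 and 2, and 39.2% inside in V16D/H19 replicate 3. At RGS7 the shared part of the promoter peak was 79.0%, 100% and 100% in control cells and 68.4%, 34.0% and 87.9% in V16D/H19, with overlap between the groups. SOGA3 alone did not overlap: 100% was shared in each control library, against 0%, 91.5% and 56.1% in V16D/H19. The SOGA3 peak was thus wider in H19 cells, and the part of it outside H3K27me3 was 582, 80 and 315 bases against 0 in all controls. H3K27me3 in the gene body, where this peak lies, was shorter in every H19 library, by the lengths already given. The share of all genes with such a fall in the shared part was not counted, and the control values stood at the upper limit of 100%. The fall is therefore not read as particular to SOGA3. For comparison, both marks were within 1 kb of the start in all 3 replicates at 788 protein-coding genes in V16D/CTL (3.996%) and 718 in V16D/H19 (3.64%). Bases under both peaks need not carry both marks on 1 molecule, since the marks were measured in separate libraries.

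**Figure D5:**
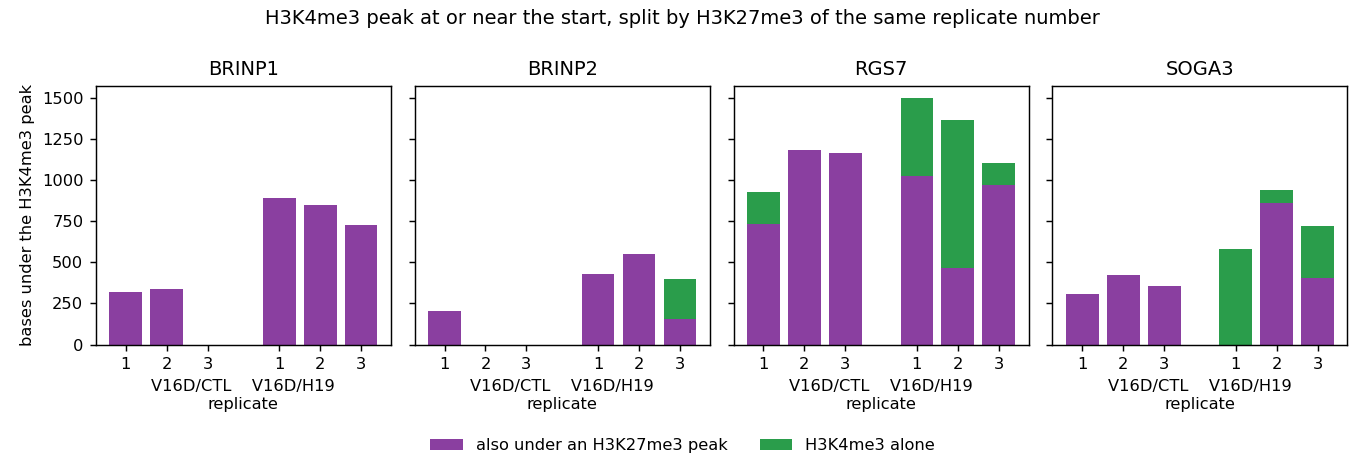
Bars are the bases under the H3K4me3 peak at or near the start in each library, split into those also under an H3K27me3 peak of the same replicate number (purple) and those under H3K4me3 alone (green). BRINP1 bars are purple in full, and SOGA3 has green parts of 582, 80 and 315 bases in the 3 V16D/H19 libraries and none in V16D/CTL.

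The one H3K27me3 site that the authors' table assigns to RGS7 lies outside the gene, 63.5 to 68.1 kb upstream of its start (chr1:241420704-241425316, hg38). In the authors' annotation it is an exon, and the transcript named for that exon is not the RGS7 transcript from which the distance is counted. H3K27me3 peaks covered 2090, 2977 and 3378 of its bases in control cells and 881, 1652 and 1308 in V16D/H19, so the H19 libraries were all lower. The authors list the site as lower from these same libraries, so this order is no separate support. The share of all sites with this order was not counted. An H3K4me3 peak was called inside the same site in all 6 libraries of that mark, with 512, 620 and 530 bases in control cells and 370, 496 and 527 in V16D/H19. Those widths overlapped. The bases under both marks were 512, 620 and 241 in control cells and 0, 376 and 79 in H19 cells, with overlap between V16D/CTL replicate 3 and V16D/H19 replicate 2.

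Other genes of these families were also examined. Of the 10 genes of the R7 module (4 R7 genes, GNB5, the anchors RGS7BP and RGS9BP, the receptors GPR158 and GPR179, and the G protein GNAO1), 6 had an H3K4me3 promoter peak in all 6 libraries. Over all 19719 genes, 60.8% had one in all 6. RGS7 alone had a listed site. Of genes with a peak of the mark, 2.41% had a higher and 7.59% a lower listed H3K4me3 site. A lower listed H3K27me3 site was seen in 10.4%. GNAO1, the G protein on which R7 proteins act, was the only module gene beside RGS7 with H3K27me3 at the promoter in all 6 libraries. Over all genes, 6.43% had it there. The H3K4me3 promoter length of GNAO1 overlapped between groups (1448 ± 212 against 1653 ± 97.3 bases, SD, n = 3). Of the 17 other RGS genes, 5 had an H3K4me3 promoter peak in all libraries, and 4 (RGS2, RGS3, RGS17 and RGS20) had a listed site. The authors' H3K4me3 means were 7.61 in control cells and 6.99 in V16D/H19 at RGS2, and 8.33 and 8.69 at RGS17. RGS3 had one listed start of each direction (9.09 and 8.54, 5.53 and 6.33). The H3K4me3 sites of the other RGS genes thus had no common direction. The H3K27me3 site at the RGS17 promoter had authors' means of 5.42 and 3.81, and that of RGS20 8.23 and 7.47. Of the SOGA relatives, MTCL1 and MTCL2 had H3K4me3 and no H3K27me3 at the promoter in all libraries, and MTCL2 had a listed H3K4me3 site (9.59 and 9.13).

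The astrotactins ASTN1 and ASTN2, neuronal membrane proteins related to the BRINP proteins, were also listed. ASTN1 had authors' H3K4me3 means of 7.59 in control cells and 8.30 in V16D/H19 at a site inside the gene. At the gene start itself an H3K4me3 peak was called in 0 control and 3 H19 libraries (309 ± 182 bases in V16D/H19), with H3K27me3 over the start in all 6. The start of ASTN1 lies 6.25 kb upstream of BRINP2 on the other strand. ASTN2 had an H3K4me3 site of 5.75 and 6.72, and an H3K27me3 site 68.2 kb upstream of its start of 6.07 and 6.66. Of 5 neuroendocrine markers (CHGA, CHGB, SYP, ENO2 and NCAM1) none had a listed site of either mark. SYP, which encodes synaptophysin, had a wider H3K4me3 promoter peak in every H19 library than in any control library (487 ± 141 against 788 ± 81.0 bases, SD, n = 3) and no H3K27me3 there. It was named after its values were seen, 5.90% of genes showed this separation, and in CHGA, CHGB, ENO2 and NCAM1 the H3K4me3 promoter lengths overlapped between the groups. The luminal genes KLK2 (8.05 and 6.73) and TMPRSS2 (10.27 and 10.59) had listed H3K4me3 sites. The luminal gene KRT8 had the same order of H3K4me3 promoter lengths as SYP (1891 ± 41.7 against 1990 ± 18.5 bases, SD, n = 3). In KLK2, KLK3, TMPRSS2 and KRT18 these lengths overlapped between the groups.

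The promoter patterns most like those of the 4 genes with an H3K4me3 promoter peak were found by the mean absolute difference of log2(signal + 1) over 12 libraries, the signal being length times fold per kb. For BRINP1 they were SYNE1 (0.33), EGR3 (0.42) and KIRREL3 (0.54), which each had an H3K4me3 peak in 2 control and 3 H19 libraries and H3K27me3 in all 6, where the median over all genes was 8.98. WNT11 (0.40), GDF10 (0.45) and XKR4 (0.50) came closest to BRINP2, with an H3K4me3 peak in 1 control and 3 H19 libraries. The closest to RGS7 were SDK2 (0.35), SLC35F3 (0.37) and PPP2R2C (0.38), with both marks in every library. BRINP3 was closest to C8orf34 (0.20), SIDT1 (0.22) and RAET1G (0.23), with H3K4me3 in all 6 libraries and H3K27me3 in none. The median over all genes was 9.45 for BRINP2, 6.69 for RGS7 and 1.95 for BRINP3, so genes in general were nearer to the BRINP3 pattern. The likeness is a description of these peak lists.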

How the data were processed

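The 6 genes and all gene lists were chosen with earlier results of these data known. H3K4me3 and H3K27me3 ChIP-seq peaks came from V16D/CTL and V16D/H19 cells, 3 libraries per group and mark (75-base single-end reads). Per the submitters' processing notes the authors used hg38, MACS2, DiffBind and ChIPseeker; the library names in the study's depth table end in bowtie, with no version given. MACS2 was run by the authors on each library against its own input, narrow for H3K4me3 and broad for H3K27me3, so peak shapes are not comparable between marks. For every peak the deposited lists hold a MACS2 score, its fold over input and its −log10 p and q. The deposited tables hold sites at an FDR up to 0.05 with each group's log2 mean; their fold, p-value and FDR columns are the authors' own comparison and were not used.

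Peaks sharing at least 1 base with a window were counted and their bases in it summed (Python 3.11.15, numpy 2.4.6). A promoter was within 1 kb of the RefSeq gene start, and a locus ran from 3 kb upstream to the gene end. Sites were merged peaks with at least 2 libraries. Genes without a strand in the tables (19719 of 20037 had one) were left out, and the strand of BRINP2 came from GENCODE. Groups were called separate when no values overlapped; with 3 libraries against 3, no test was run on members chosen from this contrast. The counting was tested on simulated data. Beyond the 6 genes, the text names the 3 most alike genes per promoter and list genes with a listed site. GNAO1, SYP, the ASTN1 start values and the KRT8 lengths were added after their values were seen. Input libraries and reads were not analysed here. Alternatives were a −log10 q of 5, lists of equal length, at least 50% of a peak in the window, a 3 kb promoter, any RefSeq start (added after seeing the data) and leaving out each library.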

Additional observations from a re-analysis of the deposited data

How the results depend on the processing

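No paired analysis was possible because the results come from no test. Values are V16D/H19 minus V16D/CTL means. For the number of genes with an H3K27me3 promoter peak the difference of 0 moved to -0.333 with peaks of a −log10 q of at least 5 and to 0.667 with at least 50% of a peak in the window. The other 14 of 16 values for the 4 summed results moved by less than 1 SD. Among them was the H3K27me3 length with peaks of a −log10 q of at least 5. It fell to 0.993 ± 1.72 kb in V16D/CTL and 0 in V16D/H19. Almost no H3K27me3 length was left there, so the small difference does not show a stable result. Leaving out 1 library gave 0.5 to 1.5 genes with an H3K4me3 promoter peak (main value 1) and 0 to 0 genes with an H3K27me3 one, 1.19 to 1.62 kb of H3K4me3 (1.35) and -5.94 to 5.97 kb of H3K27me3 (0.126) over the genes. The H3K4me3 sums stayed separate without any 1 library but overlapped with peaks of a −log10 q of at least 5, where BRINP2, BRINP3 and RGS6 also overlapped in length. With lists of equal length the BRINP3 length overlapped. With any RefSeq start, an alternative chosen after seeing the data, 5 genes in every library had an H3K27me3 promoter peak, RGS6 being the fifth. Of 73 values for single genes 60 moved by less than 1 SD. With peaks of a −log10 q of at least 5, the H3K27me3 lengths of BRINP1, RGS7, RGS6 and SOGA3 were 0 in both groups. No difference between separated groups changed sign, while 6 of these 73 values, all with overlapping groups, did. They were H3K27me3 at the promoters of BRINP2 (0.333 to -417 and -247 bases), RGS7 (-475 to 177) and SOGA3 (12 to -290) and over BRINP2 (3629 to -993), and H3K4me3 at the BRINP3 promoter (-35.7 to 1.33). The causes were not tested. The lists hold called peaks only, so signal below the threshold is not seen. The absence of a peak is not an absence of the mark.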
